A study of Homo sapiens with 12 samples.

Results

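This account covers the response of UKE1 cells to ITF2357, set as 3 arrays of UKE1 cells after 6 h with 250 nM ITF2357 against 3 arrays of UKE1 cells kept for 6 h without it. UKE1 and HEL are established human leukaemia lines, labelled erythroleukemia, and all 4 groups of the study, drug and control alike, carry JAK2V617F, the mutation that leaves the kinase JAK2 active without a cytokine. ITF2357 (givinostat) is an inhibitor of histone deacetylases. UKE1 cells grew with and without the drug in RPMI with fetal calf serum, horse serum, hydrocortisone and HEPES, so a glucocorticoid was present in the controls too. The 6 UKE1 arrays are 6 of the 12 in the study, and the other 6 are HEL cells with (3) and without (3) the drug. The labels list the HEL medium without horse serum or hydrocortisone. Line and medium therefore cannot be told apart in any comparison of UKE1 with HEL below. Members are all 18417 genes of the array with a row of a single gene symbol, out of 33297 rows in the table; where a gene had several such rows, the row with the highest mean was taken. UKE1 stands for itself here, and other JAK2-mutant cells were not part of the comparison beside HEL. The series calls the triplicates independent without saying how cultures were kept apart, and a p-value here covers only how far these samples spread, which may be technical.

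Histone deacetylases remove acetyl groups from histone tails and from many other proteins, and acetylated chromatin is generally more open to transcription. Blocking these enzymes raises some genes and lowers others, and the genes that fall often include those that depend on large clusters of enhancers and on bromodomain readers of acetyl marks. In cells with mutant JAK2 the kinase signals through STAT5 to survival and growth genes, and the transcription factors NFE2, MYB, TAL1 and GATA1 hold the erythroid and megakaryocytic programme.

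A gene is said to have risen or fallen where its adjusted p was under 0.05 in limma, with Benjamini-Hochberg adjustment over the 18417 genes; every adjusted p below is from that fit. Changes are log2 differences, ITF2357 minus untreated, with the standard error of the fit. In UKE1 4045 genes rose (22.0%) and 4115 fell (22.3%), together 44.3% of those tested. At least 2-fold changes were found for 403 genes upwards (2.19%) and 416 downwards (2.26%), and 23 and 22 of these reached 4-fold. The median change over all genes was 0.01, the median size of a change 0.18 and the median standard error 0.0809. For 53.9% of genes the treated and untreated UKE1 arrays did not overlap. No array stood apart: arrays of a UKE1 group correlated at 0.9939 to 0.9959 over all rows, and treated with untreated arrays at 0.9815 to 0.9832. Calls were more frequent among genes with a strong signal, with 6.54% of the fifth with the lowest mean level called higher and 6.00% called lower, against 29.9% and 34.8% of the fifth with the highest. A bulk array cannot tell fewer cells of a kind from less RNA of a gene per cell.

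The largest increases joined genes of quite different functions. MYBL1, a relative of the transcription factor MYB that is best known from germ cells, read 4.15, 4.72 and 4.49 in the untreated arrays and 7.39, 7.24 and 7.35 in the treated ones, 7.33-fold higher (2.87 ± 0.11, adjusted p = 6.1e-10). SERPINI1, neuroserpin, an inhibitor of tissue plasminogen activator, went from 6.27, 6.46 and 6.47 to 9.36, 9.20 and 9.19, 7.22-fold. For SAMHD1, which breaks down deoxynucleotides and restricts viruses, the levels were 5.24, 5.22 and 4.98 and 7.66, 7.59 and 7.74, a 5.73-fold rise. Genes were ranked here only where treated and untreated arrays did not overlap. In each of these genes the gap between the groups was larger than the spread within either group. RGL1, an exchange factor for RAL GTPases (5.71-fold), TMOD2, which caps the slow end of actin filaments (5.55-fold), and GRAMD1C, a sterol transfer protein (5.50-fold), followed. Further down stood STAT4 (4.52-fold), a signal transducer of interleukin 12 receptors, RGS2 (4.35-fold), which switches off G protein signals, the sulfiredoxin SRXN1 (4.32-fold) and DHRS2 (4.26-fold), a dehydrogenase. The testis linker histone H1-6 rose 4.31-fold, the ciliary gene DNAAF11 4.20-fold, the glutamine transporter SLC38A3 4.16-fold and the ciliary motor KIF3A 4.01-fold.

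The largest decreases included genes of ribosome assembly, phosphotyrosine signalling and lipid transport. UTP20, a scaffold of the small-subunit processome, read 9.08, 8.99 and 9.0 without and 6.31, 6.27 and 6.58 with ITF2357, 6.21-fold lower (-2.63 ± 0.087, adjusted p = 1.3e-10). PTPN7, a phosphatase of blood cells that acts on MAP kinases, went from 9.46, 9.48 and 9.51 to 7.01, 6.90 and 6.74, 6.07-fold lower. ANGPT1, a ligand of the receptor TEK, fell from 10.95, 11.01 and 10.86 to 8.62, 8.71 and 8.65, 4.87-fold. Only genes without overlapping arrays were ranked here too, and in all 3 the gap between the groups was larger than the spread within either group. KCNQ5, a potassium channel, fell 4.57-fold, the long noncoding RNA CCDC26 4.54-fold, JADE2, a scaffold of histone acetyltransferases, 4.50-fold, and RGS18, a platelet regulator of G protein signals, 4.35-fold. TASL, the adaptor that links endosomal Toll-like receptors to IRF5 (4.13-fold), the receptor chain IL18RAP (4.20-fold), the adhesion receptor CD84 (4.07-fold) and the X-linked factor ZFX (4.27-fold) also fell at least 4-fold.

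**Figure D1:**
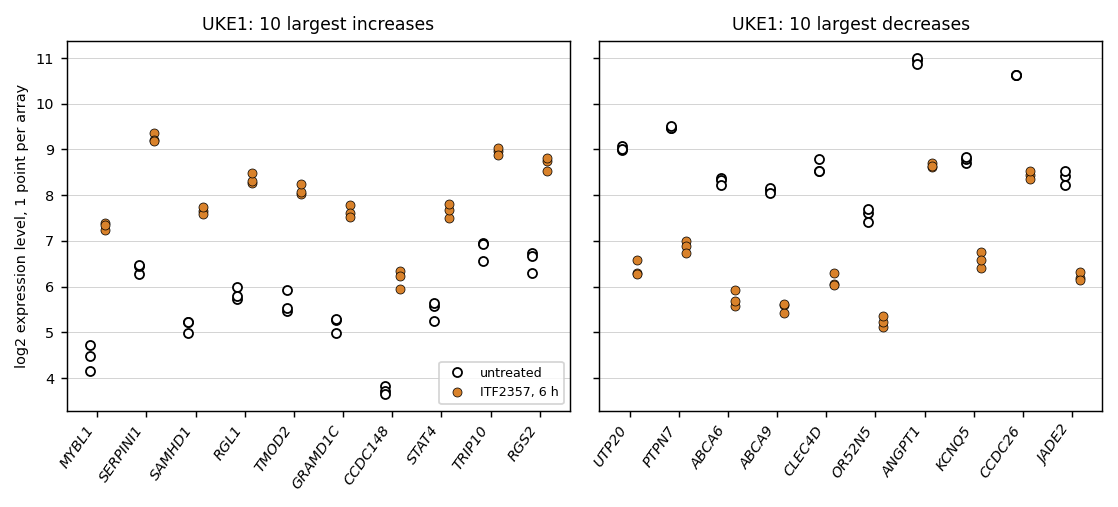
Log2 expression level (vertical axis) of the 10 genes with the largest increases (left) and the 10 with the largest decreases (right) in UKE1, with 1 point per array, open for untreated and filled for ITF2357. Only called genes whose treated and untreated arrays do not overlap were ranked. The 3 treated points therefore lie beyond all 3 untreated points in all 20 genes by choice, as for MYBL1 at 7.39, 7.24 and 7.35 against 4.15, 4.72 and 4.49.

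Beside these calls, 43 gene lists with 1226 measured members describe the response by function. Each list is given by its counts, beside the 22.0% of all genes that rose and the 22.3% that fell. The lists were chosen with earlier results of these data known and were not matched to all genes for signal level. An excess over these shares is therefore a description and no test.

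**Figure D2:**
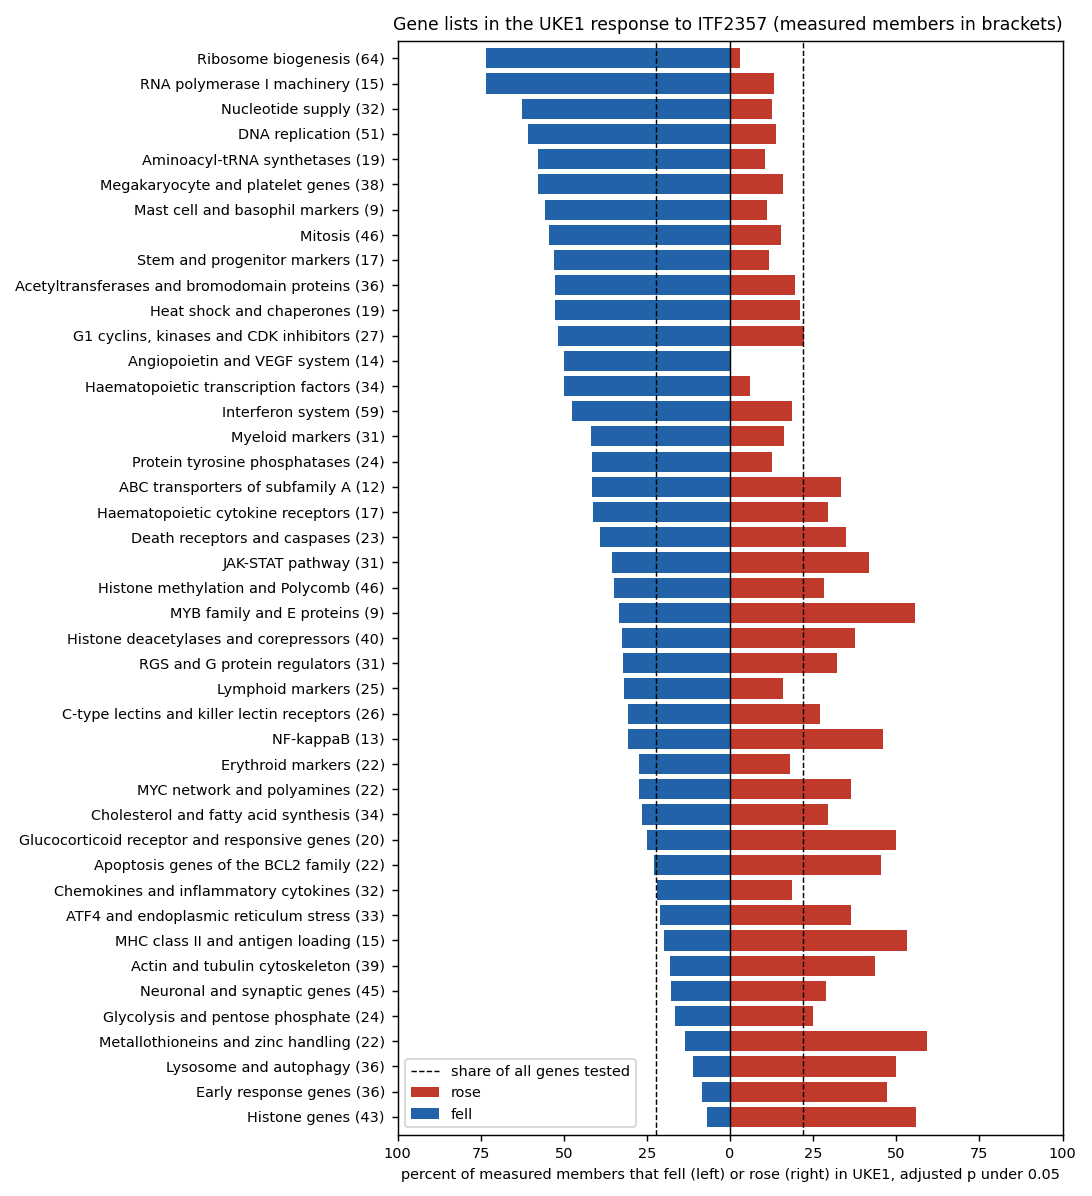
Percent of the measured members of each of the 43 lists that fell (blue, to the left) or rose (red, to the right) in UKE1 at an adjusted p under 0.05; dashed lines mark the 22.3% of all genes that fell and the 22.0% that rose. Ribosome biogenesis, with 47 of 64 members lower, stands at the top and histone genes, with 24 of 43 higher, at the bottom.

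JAK-STAT genes went both ways. Of 31 measured members, 13 rose and 11 fell, with a median change of 0.00. JAK2, the mutated kinase of these cells, read 8.60, 8.60 and 8.49 without and 8.0, 7.97 and 8.03 with the drug (-0.57 ± 0.069, adjusted p = 1.1e-05). JAK3 fell by a like amount (-0.60), while JAK1, which serves interferon and interleukin receptors, rose by 0.66, and all treated arrays of the 3 kinases were clear of the untreated ones. Among the STAT factors STAT5A (-0.89), STAT5B (-0.39) and STAT6 (-0.29) fell, and STAT3 (0.64) and STAT4 (2.18) rose. The kinases PIM1 and PIM2, survival genes downstream of STAT5, rose by 0.37 and 0.82, and both fell in HEL, by 0.79 and 0.59. Their responses differed between the lines by 1.16 (adjusted p = 6.9e-07) and 1.41 (adjusted p = 1.9e-07). Over all genes 23.9% had such a difference between the lines. JAK2 also differed (-0.67, adjusted p = 0.00025), its change in HEL being 0.10.

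Of 17 cytokine receptors 7 fell and 5 rose, or 8 when the arrays were quantile normalized again. CSF1R, the receptor of the macrophage growth factor, had the largest change: its levels were 10.22, 10.18 and 10.25 untreated and 8.74, 8.84 and 8.75 treated, 2.71-fold lower (adjusted p = 1.8e-09). In HEL its change was -0.08, and the lines differed by -1.36 (adjusted p = 4.8e-07). Untreated UKE1 cells had 4.45 log2 units more of it than untreated HEL cells, a comparison that, like the others of the untreated lines below, shares the untreated UKE1 arrays with the drug response. The interleukin receptor chains IL6R (-0.85) and IL7R (-0.75) and the stem cell factor receptor KIT (-0.39) fell. IL10RB (0.70), the shared chain IL6ST (0.61) and IL4R (0.58) rose. The erythropoietin receptor EPOR gave 0.13 ± 0.082, with overlapping arrays (adjusted p = 0.23).

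Haematopoietic transcription factors fell, 17 of 34 against 2 that rose, with a median of -0.34. NFE2, a factor of platelet and globin genes, MYB, TAL1, LYL1, LMO2, GFI1B and RUNX1 were among them, at -1.55, -1.36, -1.28, -0.75, -0.49, -0.58 and -0.45. These genes work in blood stem cells and in the red cell and platelet lineages. NFE2 had treated levels of 6.92, 6.92 and 6.98 against 8.54, 8.50 and 8.43, and for GATA1, the master factor of erythroid cells, they were 6.70, 7.02 and 6.86 against 7.45, 7.41 and 7.52. KLF1, which acts with GATA1 on globin genes, gave 6.80, 6.78 and 6.93 and 6.74, 6.77 and 6.91, overlapping arrays with a change of -0.03 (adjusted p = 0.82). The myeloid regulator SPI1 fell by 0.96, whereas CEBPB, a factor of activated myeloid cells, rose by 0.78, and HLX, a homeobox factor, rose by 0.52. IKZF2 (Helios), a zinc finger factor of lymphocytes and leukaemic stem cells, fell from 7.81, 7.89 and 7.80 to 6.51, 6.59 and 6.64. It rose in HEL by 0.75, and the difference of -2.00 between the lines had an adjusted p of 4.5e-08. ID2, an inhibitor of basic helix-loop-helix factors such as TAL1's partners, rose from 9.21, 9.34 and 9.27 to 10.61, 10.58 and 10.46, and the E protein TCF12 fell by 0.63.

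Lineage genes were checked as the label's own markers. Of 22 erythroid markers measured, 4 were higher and 16 lower in untreated UKE1 than in untreated HEL, where 33.3% and 34.4% of all genes were higher and lower. The heme enzyme ALAS2 and the membrane skeleton genes EPB42 and ANK1 were lower in UKE1, at -3.52, -4.29 and -3.70 log2 units from HEL. RHAG and HEMGN, a Rh-associated glycoprotein and a nuclear protein of blood cell precursors, were higher by 1.32 and 1.87. The table has no detection flag, so no marker was called absent. Of 17 stem and progenitor markers 10 were higher in UKE1, CD34 by 6.31 and PROM1 by 2.23.

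Within UKE1, 6 of the 22 erythroid markers fell and 4 rose with ITF2357, or 45.5% called against 44.3% of all genes. RHAG went from 12.25, 12.26 and 12.23 to 11.40, 11.39 and 11.25, HEMGN fell by 0.83, and the blood group gene ERMAP fell by 0.68. The heme enzymes CPOX (0.53), PPOX (0.49) and FECH (0.26) rose. SPTB was also called higher but lost the call in 6 of the alternative settings, as in the fit of UKE1 alone (adjusted p = 0.099). Megakaryocyte and platelet genes fell in 22 of 38 cases and rose in 6, with a median of -0.38. By role, 8 of 9 adhesion receptors fell, among them GP6 (-0.82), the collagen receptor, GP1BA (-0.74), which binds von Willebrand factor, and GP9 (-0.62); the collagen integrin chain ITGA2 alone of the 9 rose (0.72). Among genes of platelet release and skeleton, the platelet tubulin TUBB1 read 7.69, 7.40 and 7.64 untreated and 6.39, 6.43 and 6.56 treated. FERMT3 (kindlin-3), which activates integrins, fell by 1.10, and RAB27B, a GTPase of granule secretion, by 1.10, while the focal adhesion gene VCL rose by 1.05. SELP (P-selectin) fell by 0.98, VWF by 0.58 and the vascular receptor ligand ANGPT1 as above.

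Stem and progenitor markers fell in 9 of 17 cases and rose in 2, ALDH1A1 (0.36) and PROCR (0.25). The adjusted p of PROCR was 0.101 without untreated replicate 1, 0.0558 without treated replicate 1 and 0.0550 without treated replicate 2, and 0.0557 with array medians centred. CD34 had levels of 12.20, 12.07 and 12.10 untreated and 10.96, 10.97 and 10.88 treated, 2.27-fold lower with no overlap. ENG, a TGF-beta coreceptor, fell by 0.65, PROM1 (CD133) by 0.64, MLLT3, a chromatin reader of stem cells, by 0.60 and MSI2, an RNA-binding protein, by 0.38. For 12 of the 17 the UKE1 change was more negative than that in HEL, against 13.8% of all genes, and for 1 (CD96) it was more positive. MLLT3 and CD44 fell in UKE1 and rose in HEL, by 0.48 and 0.69.

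Myeloid markers fell in 13 of 31 cases and rose in 5. The granule genes RNASE2 (-0.84), CLC (-0.68), S100A8 (-0.65), LYZ (-0.53) and MPO (-0.50) fell. The other 9 of the 14 granule genes measured were not called, and the median change was -0.10. That is 35.7% called, against 44.3% of all genes. CYBB, the catalytic chain of the phagocyte oxidase, fell from 8.02, 8.08 and 7.82 to 6.79, 6.94 and 6.92, and its partner NCF4 fell by 0.75. Surface genes split: MS4A3 fell by 0.87, but the integrin chains ITGAM (0.66) and ITGAX (0.48), CD68 (0.37) and the costimulator CD86 (0.67) rose. Mast cell and basophil markers fell in 5 of 9 cases, among them the IgE receptor chain FCER1A (-0.69) and histidine decarboxylase HDC (-0.54). Lymphoid markers went down in 8 of 25 cases and up in 4, or 48.0% called against 44.3% of all genes. LAT, the scaffold of T cell receptor and platelet collagen signals, fell from 9.65, 9.56 and 9.66 to 7.98, 8.11 and 8.11, and LCK by 0.81. The B cell genes CD22 and PAX5 rose, CD22 from 6.97, 7.15 and 6.94 to 8.39, 8.18 and 8.59 and PAX5 by 0.75.

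C-type lectin and ABC transporter genes showed opposite changes of close neighbours. Of 26 lectin and killer lectin receptor genes, 7 rose and 8 fell, or 4 rose when the dimmest genes were left out. CLEC4D, a receptor for mycobacterial glycolipid, went from 8.52, 8.79 and 8.53 to 6.05, 6.30 and 6.04, 5.60-fold lower, and its neighbour CLEC4E, which binds related ligands, from 5.65, 5.93 and 5.10 to 4.22, 4.39 and 3.99. CLEC4A, an inhibitory receptor in the same gene cluster, rose from 5.11, 5.25 and 5.44 to 6.74, 6.47 and 6.71. All 3 had treated arrays clear of the untreated ones. The lines differed in the same directions, by -1.96, -0.91 and 1.29 (adjusted p = 1.3e-05, 0.010 and 3.9e-05). Untreated UKE1 had 4.22, 2.25 and 0.11 log2 units more of CLEC4D, CLEC4E and CLEC4A than untreated HEL. Whether the lower HEL levels of CLEC4D and CLEC4E limited their fall there was not tested. CLEC2B, a ligand of a killer lectin receptor, fell by 1.20 in UKE1 and rose by 0.32 in HEL.

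The ABCA genes that lie side by side on chromosome 17 code for transporters thought to handle lipids. ABCA6 read 8.37, 8.33 and 8.23 without and 5.58, 5.93 and 5.69 with ITF2357, 5.97-fold lower (adjusted p = 3.4e-10). ABCA9 fell from 8.11, 8.15 and 8.06 to 5.60, 5.42 and 5.62 and ABCA10 from 6.26, 6.37 and 6.15 to 4.93, 4.95 and 5.04. The next gene in the cluster, ABCA5, rose from 5.52, 5.64 and 5.46 to 6.22, 6.31 and 6.68, as did MAP2K6, a kinase of the p38 pathway beyond it (0.81). On the other side WIPI1, an autophagy gene, rose by 1.90, with FAM20A (0.16, adjusted p = 0.15) between it and ABCA8. ABCA6, ABCA9 and ABCA10 formed the only run of 3 neighbouring measured genes that all changed at least 2-fold the same way, in either direction, among the genes that RefSeq places. In HEL their changes were -0.03, -0.34 and -0.04, and untreated UKE1 had 5.28, 4.13 and 2.93 log2 units more of them than untreated HEL. Whether these lower levels limited a fall in HEL was not tested.

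**Figure D3:**
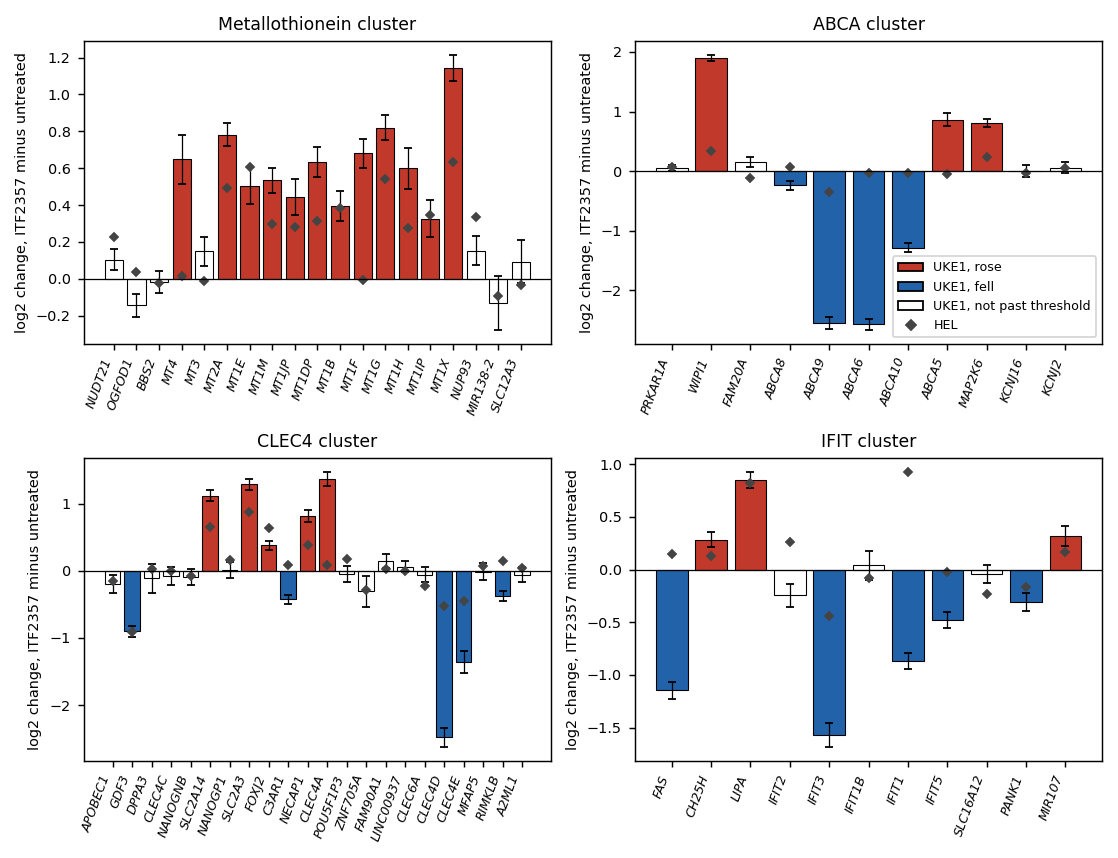
Log2 change (ITF2357 minus untreated) of the measured genes of 4 gene clusters and 3 genes to each side, in their order along the chromosome in RefSeq; bars are UKE1 with the standard error of the fit (red rose, blue fell, white not past the threshold) and diamonds are HEL. The metallothionein genes rise together while neighbours outside stay near 0, whereas the ABCA, CLEC4 and IFIT clusters hold bars of both kinds or of unequal size, as for ABCA6 (-2.58) and ABCA5 (0.86).

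Metallothioneins, small cysteine-rich proteins that bind zinc and copper, rose together. Of 10 measured, 9 rose in UKE1, and the exception was MT3 (0.15, adjusted p = 0.16), a form known from brain. MT1X had levels of 8.84, 8.89 and 8.75 untreated and 9.89, 10.11 and 9.91 treated, 2.21-fold higher (adjusted p = 2.1e-08), MT1G rose by 0.82 and MT2A by 0.78. The smallest rise was that of MT1B (0.40). Their sequences are near-identical, so probes may read several of them, and the genes are not 9 separate measurements. For 5 of the 10 the rise was larger than in HEL, where 10.1% of all genes had a more positive change in UKE1. MT1X differed by 0.51 (adjusted p = 0.0021) and MT1F by 0.69 (adjusted p = 0.00047). MTF1, the zinc sensor that switches these genes on, rose by 0.56, and the zinc exporter SLC30A1, its best known target outside the family, went from 7.05, 7.03 and 7.27 to 8.38, 8.32 and 8.32. Among zinc importers SLC39A10 (-0.74), SLC39A8 (-0.51) and SLC39A14 (-0.44) fell and SLC39A6 (0.36) rose.

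Promoters of 2 metallothioneins are shown because the family moved together and the binding site of MTF1 is well known. RefSeq promoters (GRCh38.p14) were found for 5 of the 10 genes, and all 5 held the core of the metal response element, TGCACNC or TGCGCNC on either strand, in the 250 bases before the start. Of 20107 such promoters of 14237 tested genes, 28.6% held it. MT1X (chr16:56682220-56682469, plus strand) held 4 and MT2A (chr16:56608334-56608583, plus strand) 7, in capitals in these sequences.
MT1X: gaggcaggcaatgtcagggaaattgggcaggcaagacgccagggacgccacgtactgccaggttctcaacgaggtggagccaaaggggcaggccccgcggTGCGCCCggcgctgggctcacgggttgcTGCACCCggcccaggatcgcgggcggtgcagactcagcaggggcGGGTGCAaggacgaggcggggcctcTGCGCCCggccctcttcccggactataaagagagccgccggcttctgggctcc
MT2A: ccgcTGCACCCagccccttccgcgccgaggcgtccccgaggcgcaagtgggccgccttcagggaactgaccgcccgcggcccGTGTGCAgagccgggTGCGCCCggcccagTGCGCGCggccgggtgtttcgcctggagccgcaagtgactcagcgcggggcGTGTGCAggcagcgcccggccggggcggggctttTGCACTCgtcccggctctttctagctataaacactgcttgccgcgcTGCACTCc
The cores lie along the whole window of MT2A and in the part of the MT1X window nearer the start. A match is a match of letters, and whether MTF1 bound was not measured.

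Interferon system genes fell. Of 59 measured, 28 fell and 11 rose, with a median of -0.19, and by role 22 of 38 effectors fell while 3 of 6 receptors and kinases rose and none fell. IFI44L, an antiviral effector gene, read 6.65, 6.63 and 6.44 without and 4.60, 4.79 and 4.46 with the drug, 3.88-fold lower (adjusted p = 4.6e-08). RSAD2 (viperin), which makes a chain-terminating nucleotide, went from 8.54, 8.59 and 8.54 to 6.75, 6.86 and 6.95, and IFIT3, which binds viral RNA complexes, from 7.36, 7.13 and 7.18 to 5.70, 5.75 and 5.51. None of the 3 had overlapping arrays. DTX3L and PARP9, partners in ubiquitin and ADP-ribose signalling that share a promoter region, fell by 1.52 and 1.03, TRIM22 by 1.12 and XAF1, an antagonist of XIAP, by 1.21. Of the sensors, CGAS, which detects DNA in the cytosol, fell from 9.55, 9.59 and 9.55 to 8.03, 8.17 and 8.12, RIGI by 0.42 and STING1, which relays the CGAS signal, by 0.28. The factor IRF9, part of the complex that interferon activates, fell by 0.86 and IRF5 by 1.03, whereas IRF1 (0.42) and IRF2 (0.33) rose. Receptor chains rose with IFNGR1 at 10.18, 9.99 and 10.04 against 9.17, 9.16 and 9.14 and IFNAR2 at 0.64. HERC5, the ligase that attaches ISG15, was an effector that rose, from 7.57, 7.60 and 7.46 to 8.46, 8.36 and 8.38, as did SAMD9L (0.60).

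This group differed between the lines, which also differed in medium. In HEL 22 of the 59 rose and 14 fell, where 22.6% and 19.9% of all genes did, and for 30 of the 59 the UKE1 change was the more negative, with 1 (JAK1) more positive, where 13.8% and 10.1% of all genes were. IFIT1, a sensor of uncapped viral RNA, fell in UKE1 from 7.47, 7.47 and 7.40 to 6.61, 6.60 and 6.53 and rose in HEL by 0.93; the difference of -1.79 had an adjusted p of 1.5e-07. PARP9, TRIM22, USP18 and OAS2 had HEL changes of 0.04, -0.10, 0.07 and -0.08, and UKE1 changes of -1.03, -1.12, -0.75 and -0.86. For RSAD2 and HERC5 no difference between the lines was called, at of 0.04 and -0.08 (adjusted p = 0.86 and 0.62; standard errors of the difference 0.11 and 0.10). The chemokine CXCL10, also induced by interferon, fell in UKE1 from 5.02, 5.31 and 5.20 to 4.24, 4.22 and 3.72.

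**Figure D4:**
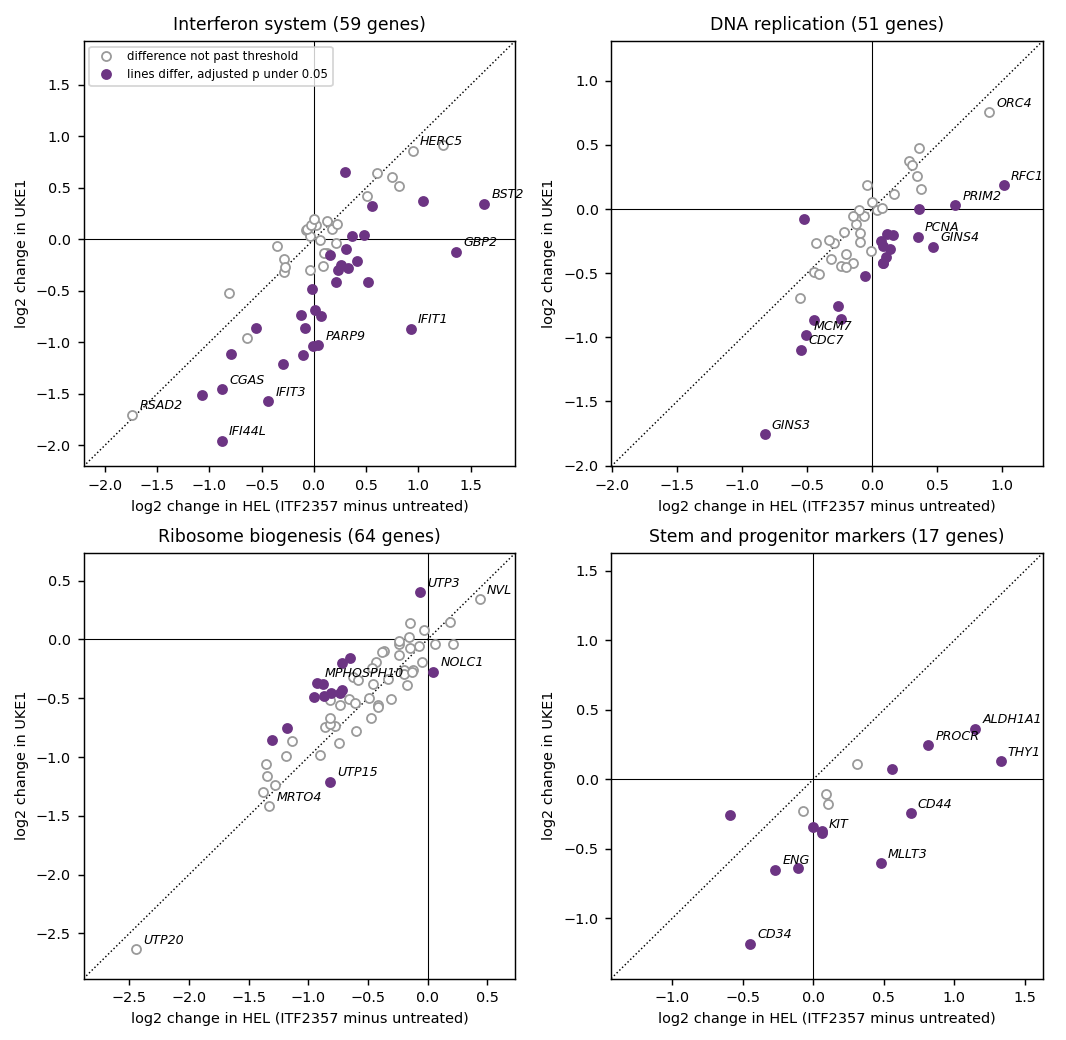
Log2 change in UKE1 (vertical) against the change in HEL (horizontal), 1 point per gene, for 4 lists; filled points are genes whose responses differed between the lines at an adjusted p under 0.05, and the dotted line marks equal change. In the interferon, replication and stem cell panels 30, 20 and 12 filled points lie under the line, while in the ribosome panel 12 lie above it and 2 below.

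The letters of 3 interferon promoters are given because members of the group moved in opposite directions while sharing an element. The core of the interferon-stimulated response element, a pair of GAAA runs parted by any 2 bases on either strand, was in 25 of 42 RefSeq promoters of the effectors (59.5%), and in 2.63% of all promoters. Taken by gene, 11 of 18 effectors that fell, 4 of 6 that rose and 6 of 6 that were not called held it in the 250 bases before a start. IFI44L (chr1:78620198-78620447, plus strand), which fell, and IFIT1 (chr10:89392373-89392622, plus strand), which fell in UKE1 and rose in HEL, held 2 each, and HERC5 (chr4:88456869-88457118, plus strand), which rose, held 3, with overlapping copies in capitals as a single run.
IFI44L: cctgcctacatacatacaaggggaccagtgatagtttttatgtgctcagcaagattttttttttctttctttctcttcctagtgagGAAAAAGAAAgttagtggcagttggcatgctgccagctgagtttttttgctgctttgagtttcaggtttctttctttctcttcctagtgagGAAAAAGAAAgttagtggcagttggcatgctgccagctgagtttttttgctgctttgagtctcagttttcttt
IFIT1: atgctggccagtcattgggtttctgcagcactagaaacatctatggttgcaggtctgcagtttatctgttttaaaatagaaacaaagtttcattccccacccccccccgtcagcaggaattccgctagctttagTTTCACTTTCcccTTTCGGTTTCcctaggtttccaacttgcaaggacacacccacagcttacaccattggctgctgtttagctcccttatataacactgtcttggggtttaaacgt
HERC5: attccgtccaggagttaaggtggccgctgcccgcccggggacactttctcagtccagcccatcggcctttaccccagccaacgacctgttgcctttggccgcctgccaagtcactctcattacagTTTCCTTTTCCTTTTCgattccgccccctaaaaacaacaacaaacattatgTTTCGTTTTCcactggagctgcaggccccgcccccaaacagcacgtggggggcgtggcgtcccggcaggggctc
Genes that rose and genes that fell thus both carry these letters, and the sequences alone do not part them.

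The make-up of promoters was also set beside the direction of change. The median GC content of the 250 bases was 66.0% for genes at least 2-fold higher, 60.0% for those at least 2-fold lower and 62.4% for all genes tested. Over all calls the median was 64.4% for genes that rose, 62.8% for those that fell and 60.8% for those not called. Genes that fell were thus still below those that rose, but not below all genes tested. The pentamer CCAAT, on either strand, was in 40.8% of the promoters of genes at least 2-fold higher, 26.1% of those at least 2-fold lower and 32.6% of all, and in 36.2% and 30.0% over all genes that rose and fell. The interferon element was in 1.31%, 4.60% and 2.63% of the same first 3 sets, and in 2.27% and 2.99% over all genes that rose and fell. These shares are descriptions, and signal level, which moved with the share of calls, was not matched between the sets.

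Ribosome biogenesis genes fell in 47 of 64 cases and rose in 2, with a median of -0.41. After UTP20 the largest falls were those of MRTO4, a large-subunit assembly factor that went from 9.56, 9.46 and 9.37 to 8.09, 8.05 and 7.99, RRS1 (-1.30), NOP16 (-1.24) and UTP15 (-1.21), a processome subunit. By role 23 of 32 processome genes, 5 of 7 proteins of small nucleolar ribonucleoproteins and 18 of 23 large-subunit factors fell. Among the nucleolar ribonucleoprotein genes DKC1, the pseudouridine synthase, fell by 0.88. UTP3 (0.40) and NVL (0.34) rose, the former from 9.37, 9.31 and 9.14 to 9.69, 9.70 and 9.63. The list fell in HEL too (49 of 64), but for 12 members the UKE1 change was the more positive and for 2 the more negative. Of all genes 10.1% and 13.8% were. Among the 12 were MYBBP1A (-0.86 in UKE1, -1.30 in HEL) and WDR43 (-0.75 and -1.18).

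The RNA polymerase I machinery, which transcribes ribosomal RNA genes, fell in 11 of 15 cases. UBTF, the factor that bends and marks these genes, read 10.49, 10.59 and 10.58 untreated and 8.97, 9.06 and 8.91 treated, 2.98-fold lower (adjusted p = 8.3e-10), with a change of -0.60 in HEL (difference -0.98, adjusted p = 6.2e-06). Subunits followed with POLR1C (-0.71), POLR1H (-0.59) and POLR1B (-0.58), all lower, and POLR1D (0.38), shared with polymerase III, rose. TTF1 also rose but lost the call in 6 of the alternative settings. Among the falls, POLR1E and POLR1G lost the call in 8 and 6 of them. MYC itself had 11.54, 11.62 and 11.53 without and 11.37, 11.38 and 11.27 with ITF2357, a fall of 0.22 against 0.79 in HEL (difference 0.57, adjusted p = 0.00022). Its relative MYCN fell by 1.16, and MXD1, which competes with MYC for its partner MAX, rose from 8.48, 8.42 and 8.42 to 9.59, 9.70 and 9.69. Polyamine genes moved apart, with the synthase SRM lower (-0.58) and the catabolic enzymes SMOX (1.16) and SAT1 (0.65) and the antizyme OAZ2 (1.02) higher. Cytosolic aminoacyl-tRNA synthetases fell in 11 of 19 cases, led by AARS1 (-0.61) and LARS1 (-0.60), while SARS1 (0.26) and WARS1 (0.32) rose.

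Genes of nucleotide supply fell in 20 of 32 cases. All 5 genes of pyrimidine synthesis fell: CTPS1, which makes CTP, from 10.21, 10.04 and 10.09 to 8.54, 8.53 and 8.51, CAD, the entry enzyme, by 1.26, DHODH, the mitochondrial step and a drug target in leukaemia, by 1.00, CTPS2 by 0.92 and UMPS by 0.52. In 4 of them the fall was also called in HEL, and CTPS2 (0.07 in HEL) was the exception, with a difference of -0.99 (adjusted p = 0.00010). Of 14 purine genes 9 fell, among them ATIC (-0.94), PFAS (-0.88) and GART (-0.68). On the side of deoxynucleotides thymidylate synthase TYMS (-0.83) and deoxycytidine kinase DCK (-0.53) fell, TK1 (0.45) rose, and SAMHD1, which removes deoxynucleotides, rose as given above.

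Cell cycle genes fell at the entry, in replication and in mitosis. The D cyclins, which start the cycle with CDK4 and CDK6, all fell: CCND2 went from 11.52, 11.35 and 11.44 to 10.55, 10.63 and 10.65, CCND1 fell by 0.85 and CCND3 by 0.44. Their kinases CDK6 (-0.70) and CDK4 (-0.42) fell too. The E cyclins rose, CCNE1 from 7.70, 7.81 and 7.47 to 8.64, 8.58 and 8.64 and CCNE2 by 0.66, with their kinase CDK2 (0.33). The inhibitor CDKN1A (p21), a known target of these drugs, rose from 7.93, 7.89 and 7.92 to 8.32, 8.39 and 8.36, 1.36-fold, a change of 0.44 against 1.00 in HEL (difference -0.56, adjusted p = 0.00045). CDKN1B fell by 0.41. Of 10 E2F genes 6 fell, E2F8, a repressor of the family, from 8.30, 8.23 and 8.33 to 7.11, 7.08 and 7.06, and none rose. In this list of 27 genes the UKE1 change was more negative than that in HEL for 12 and more positive for none. Of all genes 13.8% and 10.1% were. CCND1 and CCND2 had HEL changes of 0.14 and 0.07.

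DNA replication genes fell in 31 of 51 cases and rose in 7. GINS3, a subunit of the replicative helicase, read 8.79, 8.85 and 8.73 untreated and 7.01, 7.08 and 7.01 treated, 3.38-fold lower (adjusted p = 3.8e-09). Of 8 MCM genes 7 fell, MCM7 (-0.99) and MCM2 (-0.87) most, and MCM8, which acts in recombination, rose by 0.34. CDC7, the kinase that fires origins, fell by 1.10, and the fork protein TIMELESS by 0.86. Origin genes split, with ORC2 lower (-0.52) and ORC4 (0.75), ORC3 (0.47) and the loader CDC6 (0.37) higher. For 20 of the 51 the UKE1 change was the more negative and for 1 (TIPIN) the more positive, against 13.8% and 10.1% of all genes. PCNA, the sliding clamp, fell by 0.22 in UKE1 and rose by 0.35 in HEL. In the untreated lines 44 of these 51 genes were higher in UKE1, against 33.3% of all genes.

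Mitosis genes fell in 25 of 46 cases and rose in 7. PLK1, a kinase of mitotic entry, went from 10.24, 10.33 and 10.28 to 9.03, 9.11 and 9.01, cyclin A2 (CCNA2) from 10.04, 10.10 and 10.08 to 9.13, 9.11 and 9.0, and the phosphatase CDC25A fell by 0.92. Treated arrays were clear of untreated ones in all 3. The kinetochore genes ZWINT (-0.95), MAD2L1 (-0.79) and NDC80 (-0.64) fell, 6 of 8 in that role. NEK2 (0.68), a centrosome kinase, CDC25C (0.45), UBE2S (0.52), PTTG1 (securin, 0.41) and KIF11 (0.32) rose.

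Chromatin enzymes, the drug's own field, changed in both directions. Of the class I and IV deacetylases, HDAC3, the enzyme of the NCoR complex, rose from 9.79, 9.68 and 9.61 to 10.79, 10.82 and 10.79 and HDAC11 from 5.44, 5.35 and 5.22 to 6.56, 6.48 and 6.35, each over 2-fold; HDAC1 rose by 0.25, and HDAC2 (-0.25) and HDAC8 (-0.41) fell. These 5 had no called difference between the lines. HDAC7, a class II enzyme of lymphoid and endothelial cells, fell by 0.75, and HDAC5 rose by 0.34. Acetyltransferases fell in 8 of 11 cases: KAT5 (Tip60) went from 8.64, 8.64 and 8.50 to 7.25, 7.50 and 7.39, and CREBBP (-1.01), KAT6B (-0.86) and EP300 (-0.57) fell. The scaffolds JADE2 and JADE1, which direct the acetyltransferase KAT7, fell by 2.17 and 1.69, both further than in HEL (differences -1.42 and -1.19, adjusted p = 3.2e-06 and 1.4e-06). Among histone methyltransferases NSD1 went from 7.52, 7.61 and 7.63 to 5.72, 5.92 and 6.04 and SUV39H1 fell by 1.22, the Polycomb accessory gene PHF19 fell by 1.38, and the demethylase KDM5B rose from 9.53, 9.41 and 9.48 to 10.51, 10.62 and 10.68. In the methylation and Polycomb list 13 of 46 rose and 16 fell in UKE1. For 18 the UKE1 change was more negative than in HEL, against 13.8% of all genes.

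Histone genes rose in 24 of 43 cases and fell in 3. The linker histone H1-10 went from 8.31, 8.29 and 8.21 to 9.95, 9.98 and 9.95, 3.22-fold (adjusted p = 1.5e-09), and H1-3 rose by 1.36. Of the genes whose messages can be polyadenylated, H2BC21 (1.17), H2AJ (1.06) and H3-3B (0.95), the replacement histone H3.3, rose more than in HEL, by 0.84, 0.67 and 0.61 (each at an adjusted p under 0.05). The list as a whole did not lean that way. In HEL 31 of the 43 rose, and the UKE1 change was the more positive for 9 and the more negative for 10. Of all genes 10.1% and 13.8% were. MACROH2A2, a variant of silent chromatin, moved against the list, from 8.76, 8.79 and 8.61 to 7.50, 7.45 and 7.22, and H2AZ1 fell by 0.34. The remaining gene that fell, H4C1 (-0.32), had an adjusted p of 0.063 without untreated replicate 1, 0.127 without untreated replicate 2, 0.0701 without treated replicate 1 and 0.093 without treated replicate 3. Outside the list H4C16 rose 4.23-fold and H1-6 as above. Histone genes are near copies of each other, and reads of their probes can be shared.

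Apoptosis genes of the BCL2 family rose in 10 of 22 cases and fell in 5. The BH3-only genes, which trigger the mitochondrial pathway, rose in 6 of 10 cases: BMF from 7.06, 7.06 and 6.92 to 8.43, 8.42 and 8.34, BCL2L11 (BIM) by 1.08 and PMAIP1 (NOXA) by 0.85. The survival genes BCL2L1 and BCL2 fell, from 10.01, 9.94 and 9.90 to 9.12, 9.0 and 8.93 and from 9.05, 9.03 and 8.93 to 8.16, 8.21 and 8.34, and MCL1 rose by 0.52. PMAIP1 and BCL2 gave, in HEL, 0.03 and 0.05, and the lines differed for both (0.82 and -0.82, adjusted p = 4.5e-05 and 0.00018). Death receptor and caspase genes rose in 8 and fell in 9 of 23 cases. The death receptor FAS fell from 7.53, 7.66 and 7.45 to 6.49, 6.33 and 6.40, its adaptor FADD by 0.55 and CASP6 by 0.60. APAF1, the core of the apoptosome, rose by 1.18, CASP9, which it activates, by 0.68 and CASP10 by 0.79. For FAS, FADD and CASP6 the change was more negative than in HEL, by -1.30, -0.50 and -1.10 (adjusted p = 3.6e-06, 0.018 and 3.7e-05).

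Of 16 genes known to respond to glucocorticoids 10 rose and 4 fell, in a medium with hydrocortisone in both conditions. SGK1, a kinase of ion transport, went from 5.19, 5.35 and 5.24 to 6.95, 6.98 and 6.93, and DDIT4, an inhibitor of mTOR complex 1, from 6.42, 6.35 and 5.70 to 8.31, 8.49 and 7.89. TSC22D3 (GILZ) rose by 0.93, PER1 by 0.73 and BCL6 by 0.85. The receptor gene NR3C1 fell by 0.29, and NFKBIA (-0.62), ZBTB16 (-0.60) and MAOA (-0.42) fell. In HEL, whose medium is listed without hydrocortisone, SGK1 gave 0.01 and DDIT4 0.46, differences of 1.68 and 1.61 (adjusted p = 8.6e-08 and 0.00030), while TSC22D3 and PER1 rose by 0.83 and 0.66. Line and medium cannot be told apart in these differences.

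Early response genes rose in 17 of 36 cases and fell in 3. JUN, a chain of the factor AP-1, went from 6.25, 6.22 and 6.23 to 7.49, 7.58 and 7.45, FOS rose by 0.93, the MAP kinase phosphatase DUSP5 by 1.00, the growth inhibitor BTG1 by 1.08 and ZFP36L1, which promotes messenger decay, by 1.04. EGR1, a prompt target of MAP kinase signals, gave 0.06 ± 0.079 (adjusted p = 0.63). For JUN the lines differed by 1.16 (adjusted p = 1.0e-06), with a change of 0.12 in HEL. In the NF-kappaB list NFKB2 rose from 7.17, 6.92 and 7.05 to 8.40, 8.42 and 8.46 and NFKB1 fell from 9.53, 9.53 and 9.50 to 8.48, 8.53 and 8.48, the precursors of the p52 and p50 chains. The deubiquitinases TNFAIP3 (A20, 1.06) and CYLD (1.28), which restrain the pathway, rose, and the inhibitors NFKBIE (-0.91) and NFKBIA fell. TNFAIP3 gave 0.03 in HEL (difference 1.03, adjusted p = 1.3e-06).

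Lysosome and autophagy genes rose in 18 of 36 cases and fell in 4. WIPI1, which binds the membrane of the nascent autophagosome, read 7.21, 7.16 and 7.17 untreated and 9.09, 9.11 and 9.04 treated, 3.73-fold higher (adjusted p = 8.7e-11), and the lysosomal sialidase NEU1 went from 8.74, 8.87 and 8.49 to 10.58, 10.58 and 10.50. GABARAPL1 (1.11) and MAP1LC3B (1.01), which coat autophagosomes, and ATG2A (1.06), a lipid transfer protein, rose, and ATG7 (-0.70), needed for that coat, fell. TFEB, TFE3 and MITF, the factors that drive these genes, gave 0.22, 0.13 and 0.19 (adjusted p = 0.067, 0.21 and 0.070). In lipid synthesis, 7 of 11 fatty acid enzymes fell, FASN (-0.87), FADS2 (-0.73) and FADS1 (-0.67) most, while ELOVL4, an elongase of very long chains, rose by 1.44. Of 16 cholesterol enzymes 5 rose in UKE1, TM7SF2 (0.81) and LSS (0.75) most, and 12 in HEL. For 7 of the 16 the UKE1 change was the more negative, against 13.8% of all genes. Glucose transporter SLC2A3 rose by 1.29 and the kinase PFKP fell by 0.70, and GAPDH, ENO1, PKM and PGK1 had changes from -0.02 to 0.05, none past the threshold.

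Genes better known from other tissues changed in both directions. Of 45 neuronal and synaptic genes 13 rose and 8 fell, or 46.7% called against 44.3% of all genes, and 4 or 5 fell without untreated replicate 1 or 3 or treated replicate 1 or 3. Among those that rose were VAMP1, a vesicle fusion protein, from 8.25, 8.02 and 8.10 to 9.95, 10.02 and 10.16, the neuronal enolase ENO2 from 6.75, 6.40 and 6.56 to 8.06, 8.01 and 7.97, the vesicle protein SYP (1.00) and SYT11 (1.00). The defining genes GAP43, STMN2, SCG2 and NEFL gave -0.01, -0.08, -0.08 and 0.24, none past the threshold. REST, the repressor of neuronal genes, fell by 0.25, and its corepressors RCOR1 (0.33) and RCOR2 (0.84) rose. In the cytoskeleton list 17 of 39 rose and 7 fell, or 2 fell without untreated replicate 3, 4 without treated replicate 2 and 3 without treated replicate 3. The list's increases included the microtubule genes MAP1A (1.37) and MAP1B (1.10) and TRIP10 (2.14), an adaptor of CDC42, beside TMOD2. Of MHC class II genes 6 of 9 rose, HLA-DMB (0.50) and HLA-DMA (0.41) among them, while their transactivator CIITA gave -0.10 (adjusted p = 0.29).

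Stress, chaperone and inflammatory genes gave mixed counts. In the ATF4 and endoplasmic reticulum list 12 of 33 rose and 7 fell: the stress gene SESN2, an inhibitor of mTOR complex 1, went from 7.05, 6.67 and 6.78 to 7.65, 7.80 and 7.77 and DDIT3 (CHOP) rose by 0.62, while ATF5 fell by 0.94 and the factor XBP1 by 0.65. The chaperone HSPA5 and the degradation gene HERPUD1 fell by 0.39 and 0.32, and in HEL their changes were 0.02 and 0.58 (differences -0.41 and -0.90, adjusted p = 0.0019 and 4.3e-06). They were in the minority: for 9 of the 33 the UKE1 change was the more positive and for 4 the more negative. Of all genes 10.1% and 13.8% were. Heat shock and chaperone genes fell in 10 of 19 cases and rose in 4. Among chemokines and cytokines, 6 of 32 rose and 7 fell, or 40.6% called against 44.3% of all genes. The neutrophil attractants CXCL2 and CXCL8 fell, from 7.38, 7.70 and 7.47 to 6.53, 6.40 and 6.57 and from 8.04, 7.92 and 7.85 to 7.23, 7.34 and 7.35, and IL1B fell by 0.78, whereas IL18 (0.58) and TNF (0.48) rose.

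G protein regulators held equal numbers of both directions, with 10 of 31 higher and 10 lower. RGS18 and RGS2, which both speed the switching off of G proteins and lie at the 2 ends of the list, read 9.35, 9.47 and 9.28 and 6.74, 6.67 and 6.31 untreated and 7.34, 7.30 and 7.09 and 8.75, 8.81 and 8.53 treated. RGS9, the form of photoreceptors and striatum, rose by 1.18, and RGS19 fell by 0.90. GNA15, a G protein alpha chain of blood cells, fell from 9.79, 9.80 and 9.70 to 8.70, 8.75 and 8.65, against a rise of 0.19 in HEL (difference -1.25, adjusted p = 1.1e-06). Protein tyrosine phosphatases fell in 10 of 24 cases and rose in 3. Beside PTPN7 those that act on JAK and STAT proteins split, with PTPN6 (-0.48), PTPN2 (-0.50) and PTPN11 (-0.26) lower and PTPN1 (0.79) higher.

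The angiopoietin and VEGF system fell in 7 of 14 cases and rose in none, with 2 members called higher after quantile normalizing again. ANGPT2, an antagonist of ANGPT1 at TEK, went from 7.50, 7.58 and 7.43 to 5.40, 5.49 and 5.41, 4.21-fold lower, the VEGF receptor KDR from 6.50, 6.46 and 6.61 to 5.47, 5.42 and 5.39, and the coreceptors NRP1 and NRP2 fell by 0.95 and 0.67. TEK itself gave 0.18 ± 0.082 (adjusted p = 0.087). For 8 of the 14 the UKE1 change was more negative than in HEL, against 13.8% of all genes. In HEL ANGPT2 gave 0.05 and KDR rose by 0.38. In the untreated lines 11 of the 14 were higher in UKE1 and 3 lower, against 33.3% and 34.4% of all genes. Whether lower levels in HEL limited a fall there was not tested.

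Of the 8160 genes called in UKE1, 3106 (38.1%) had a response that differed from that in HEL, with line and medium not told apart. In 386 of them the lines moved in opposite directions, 111 up in UKE1 and down in HEL and 275 the other way, and 1391 were called in UKE1 alone with a difference past the threshold. The largest differences towards UKE1 were those of KRT79 (2.92), FAM86B2-DT (2.41), H1-6 (2.11) and AHNAK2 (2.06), followed by DNAAF11 (2.04) and SLC38A3 (1.97). That of KRT79 came mostly from HEL, where it fell (-2.73). Its UKE1 change was 0.19, a call lost in several alternatives, as in the fit of UKE1 alone (adjusted p = 0.0908). Towards HEL they were SOSTDC1 (-2.93), an antagonist of bone morphogenetic proteins, ABCA6 (-2.55), the remodelling ATPase SMARCA1 (-2.42) and SERPINB9 (-2.29), an inhibitor of granzyme B. SMARCA1 gave 0.03 in UKE1 (adjusted p = 0.86) and 2.46 in HEL, and SOSTDC1 by -1.36 and 1.57.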

How the data were processed

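RNA of 12 samples was read on Affymetrix Human Gene 1.0 ST arrays, which sum many probes along each gene. The deposited values are log2 intensities made by the authors with RMA in Affymetrix Expression Console, per the submitters' processing notes; RMA corrects the background, quantile normalizes the arrays and summarises probes, with no version or annotation build given in the sources used here. The log base is not stated: it was taken as 2 because RMA gives log2 values and the values run from 1.26 to 14.36, and every fold rests on it. Of 33297 rows, 19460 have a single symbol in GEO's platform annotation, 1754 several and 12083 none; 769 genes had several rows, of which the row with the highest mean was kept.

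A model with a mean for each of the 4 groups was fitted to the 18417 genes over all 12 arrays (8 residual degrees of freedom) with limma 3.58.1 in R 4.3.3, with moderated variances and Benjamini-Hochberg adjustment, and was tested on simulated data. Contrasts were the response in UKE1, that in HEL, their difference, and untreated UKE1 minus HEL. No filter on dim genes was used. The arrays' number limits the precision. Motifs were searched on both strands in RefSeq promoters.

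Members and lists were chosen with earlier results of these data known. Genes that could be named were set by rule: the 25 largest changes each way with arrays that do not overlap, the 10 largest differences each way, in each list 5 members with the smallest adjusted p, whole roles of 5 or fewer, members that moved against their list, and 9 genes of the study's subject (JAK2, STAT5A, GATA1, TAL1, NFE2, MYB, MYC, CDKN1A, BCL2L1). Not every gene that met the rule is described above. Other list members and genes of the clusters were named after their values were seen. Alternatives were a fit of UKE1 alone, quantile normalization again, centring on array medians, a filter on the dimmest 25 percent, the mean of a gene's rows, a replicate block, a variance trend with robust shrinkage, and leaving out each UKE1 array.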

Additional observations from a re-analysis of the deposited data

Results flagged for a closer look

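The responses of UKE1 and HEL, lines grown in different media, differed in 4395 genes by limma's test of the difference. The 10 largest differences towards higher values in UKE1 were those of KRT79, a keratin (2.92), FAM86B2-DT (2.41), the linker histone H1-6 (2.11), AHNAK2 (2.06), DNAAF11 (2.04), the transporter SLC38A3 (1.97), the actin regulator FMNL2 (1.93), CEP112 (1.85), GRAMD1C (1.84) and the histone H4C16 (1.74), in log2 units. The 10 largest the other way were SOSTDC1 (-2.93), ABCA6 (-2.55), SMARCA1 (-2.42), SERPINB9 (-2.29), OR52N5 (-2.24), NDST3 (-2.23), ARHGAP29 (-2.22), ABCA9 (-2.22), ANGPT2 (-2.12) and the carbonic anhydrase CA2 (-2.10). A gene with a low level in untreated HEL has less room to fall there, and its part in these differences was not tested. Of the genes of the study's subject, JAK2 (-0.67), CDKN1A (-0.56) and MYC (0.57) also differed.

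Rows outside the gene table carried calls as well. Of 12083 rows without a symbol, 2279 passed the threshold in UKE1 (18.9%), 934 higher and 1345 lower, and 229 of them changed at least 2-fold. Of 1754 rows with several symbols, 624 passed (35.6%), 316 higher and 308 lower. They were given no gene name.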

How the results depend on the processing

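No count of genes called in the UKE1 response or in the difference moved by over 1.5 times or reversed under the alternatives run. Without 1 UKE1 array, 3605 to 3856 genes rose, 3722 to 3894 fell and 3726 to 3982 differed between the lines. Centring on array medians gave 3583 higher and 4537 lower, so that 44.1% of calls were higher in place of 49.6%, and 7698 of the 8160 calls remained. Without 1 UKE1 array 803 to 928 of the 8160 calls were lost, and with the mean of a gene's rows 2 calls took the opposite direction. For the named genes 4771 of 4859 values kept their direction and their side of the threshold, 62 lost the call, 26 gained it and none reversed. Many of these genes were named for a large change or a small adjusted p in this same fit, which favours stable calls. Of 792 list members called, 690 were called in every setting and 101 lost the call without 1 of the arrays. Among list counts 28 of 1118 moved by over 1.5 times, nearly all of them counts of few genes. Arrays with the same number deviated together only weakly (correlations of 0.03, 0.034 and 0.035), while the other pairs gave -0.031 to -0.003. With the replicate block 3920 genes rose, 3976 fell and 3899 differed, the last in place of 4395. Changes of dim genes are limited by signal over background: the median standard error was 0.103 in the fifth of genes with the lowest level and 0.0666 in the highest.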

Other observations

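Of 5 olfactory receptor genes beside TRIM22 on chromosome 11, chosen after their values were seen, 2 fell as it did, 1 rose and 2 did not pass the threshold. TRIM22, an interferon effector, fell by 1.12 log2 units in UKE1. OR52N5 fell by 2.34 and OR52N1 fell by 2.13. Their neighbour OR52N2 rose by 0.56, and OR52N4 and OR56B1, which lie in the same stretch, gave 0.04 and -0.19. TRIM5, on the other side of TRIM22, gave -0.15. Which transcript the olfactory receptor probes read was not tested.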
